A study of Caenorhabditis elegans with 4 samples.

Results

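Transcripts of 9 sperm genes of *C. elegans* were followed in worms exposed to cisplatin. They encode the sperm phosphatases GSP-3 and GSP-4, the sperm chromatin proteins SMZ-1, SMZ-2 and HTAS-1, and the SSQ proteins. The genes were taken by name. Of the 15408 genes in the deposited table, 7 carry one of these names in the description column. The other 2, *smz-1* and *smz-2*, stand there under their sequence names C25G4.6 and T21G5.4 and were found by gene ID through the RefSeq annotation. RNA came from N2, the wild-type strain, grown as mixed-stage populations on OP50 bacteria at 20°C. The cisplatin group consisted of 2 libraries from populations kept for 24 h with 60 µg/ml cisplatin, a platinum drug that crosslinks DNA. The control group consisted of 2 libraries from untreated populations, and the libraries of each group are numbered 1 and 2. Each library comes from poly(A) RNA of a whole population, so embryos, larvae, adults and the few males of a culture were pooled.

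Hermaphrodites of *C. elegans* make sperm in the last larval stage and then switch to oocytes, while males make sperm throughout adult life. Genes of the sperm program are transcribed in germ cells before the meiotic divisions end, and finished sperm are transcriptionally silent. GSP-3 and GSP-4 are nearly identical catalytic subunits of protein phosphatase 1 (PP1) that act in chromosome segregation during sperm meiosis and in the motility of sperm. SMZ-1 and SMZ-2 are related PDZ domain proteins, and HTAS-1 is a variant of histone H2A. SMZ-1, SMZ-2 and HTAS-1 were each identified as components of sperm chromatin. The SSQ proteins form a sperm-specific family whose molecular role is not known. In whole worms, fewer sperm-forming cells and less RNA per cell cannot be told apart.

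In the Ensembl annotation of WBcel235, 6 of the genes lie on chromosome IV and 3 on chromosome I, and all are annotated as protein coding. On chromosome I, *gsp-4* (T03F1.5) spans 3838237 to 3839673, *gsp-3* (W09C3.6) spans 4709259 to 4710712 and *smz-2* spans 6872607 to 6873757, all on the minus strand. On the plus strand of chromosome IV, *ssq-2* (T28H11.5) spans 4996142 to 4997559, *ssq-4* (T28H11.1) spans 5016479 to 5017766 and *ssq-3* (ZC477.1) spans 7111604 to 7112885. Farther along that strand are *ssq-1* (K07F5.11), at 9852550 to 9853609, and *smz-1*, at 12455050 to 12456299. *htas-1* (ZK1251.1) lies on the minus strand of chromosome IV from 9682984 to 9683533. The genes are short, with 1 to 3 introns. The coding sequences of *gsp-3* and *gsp-4* have the same length, 915 bases for 305 residues, and those of *smz-1* and *smz-2* also have the same length, 822 bases for 274 residues. The *ssq* proteins differ more in length, with 290 residues for SSQ-1, 405 for SSQ-2, 371 for SSQ-3 and 373 for SSQ-4. HTAS-1 has 145 residues.

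Values are FPKM, counts of fragments scaled to exon length and to library size, so that levels of different genes can be set side by side. The table gives no library totals. No estimate of these genes was marked as failed by the authors' software. Read from the confidence bounds in the table, a member was covered by 21 to 679 fragments per library. That corresponds to a counting error (SD) of 3.84% to 21.7%. It was widest for *htas-1*, the shortest gene, with 21 to 61 fragments. Of the 36 values, 23 lie within their own bounds, so these numbers of fragments are estimates. For *ssq-1* and *ssq-4*, all 4 values lie above their upper bounds, so FPKM and bounds disagree most consistently there. For *gsp-3*, *gsp-4*, *smz-2* and *htas-1* the start and end given in the deposited table cover 4.94% to 17.4% of the gene. The interval given for *gsp-4*, 3839603 to 3839899, also runs past its annotated end. The estimated fragments per FPKM and kilobase of annotated exon were between 3.83 and 7.16 over all members and libraries. The copies *gsp-3* and *gsp-4*, and likewise *smz-1* and *smz-2*, are similar in sequence. Reads mapping to several sites were filtered by the authors, so how much signal each copy lost is not known, and their separate values are uncertain.

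Each of the 9 genes was lower in the cisplatin library than in the control library of the same number, in both pairs. Among all 15065 genes tested, 15.7% were lower in both pairs. Averaged over the libraries of a group, a member had between 0.536 and 0.857 times its control level. The median log2 fold change of the members was -0.68, against 0.13 for all genes, on the log2(FPKM + 0.5) scale. That median was -0.34 without cisplatin replicate 1, -1.05 without cisplatin replicate 2, -1.05 without control replicate 1 and -0.25 without control replicate 2, while the median of all genes was 0.27, 0.00, -0.15 and 0.42 in these fits. For 4 genes, *gsp-4*, *smz-1*, *ssq-2* and *ssq-4*, both cisplatin values lay below both control values, and over all genes this was so for 4.21%. For the other 5 the higher cisplatin value exceeded the lower control value.

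None of the 9 genes passed in limma, which compared the groups on the log2(FPKM + 0.5) scale with Benjamini-Hochberg adjustment over all genes, and the adjusted p was 1.00 for each. Over all genes, 0 of 15065 (0%) passed an adjusted p of 0.05 in either direction. At an unadjusted p of at most 0.05, 0.445% of all genes were lower, and 1 member, *gsp-4*, was among them, which was not so without cisplatin replicate 1 or either control replicate. With the replicate number as a block in the same limma model, *gsp-4*, *smz-1*, *ssq-2* and *ssq-4* passed (adjusted p of 0.0161, 0.0248, 0.00755 and 0.00635), and 0.916% of all genes were lower past that threshold. This fit leaves 1 residual degree of freedom per gene, and the sources do not say that the same number marks a shared culture or day. The labels call the libraries biological replicates without describing separate cultures, so the p-values measure the spread between these libraries. The size of each difference is given below with its standard error.

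**Figure D1:**
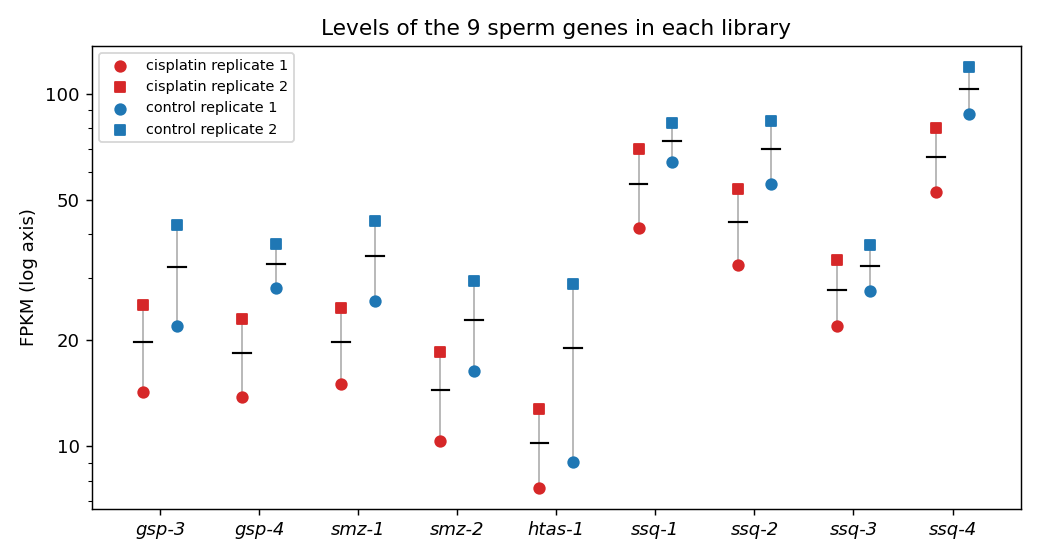
FPKM of each of the 9 genes (log axis) in the 2 cisplatin libraries (red) and the 2 control libraries (blue). Circles are replicate 1, squares replicate 2, and black bars the mean of a group. In every gene the square lies above the circle of its group, and each red symbol lies below the blue symbol of the same shape.

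Among the phosphatases, *gsp-4* had 13.8 and 22.9 FPKM in cisplatin replicates 1 and 2, against 28.2 and 37.5 FPKM in control replicates 1 and 2. Its groups did not overlap. Its log2 fold change of -0.85 (standard error 0.35, unadjusted p = 0.0482 in limma) was the lowest of the members. *gsp-3* had 14.3 and 25.2 FPKM with cisplatin, against 22.05 and 42.7 FPKM in controls. Here cisplatin replicate 2 was above control replicate 1, and the log2 fold change was -0.68 (standard error 0.43), with -1.15 to -0.21 when 1 library was left out. The ratio of *gsp-4* to *gsp-3* was 0.967 and 0.909 in the cisplatin libraries and 1.28 and 0.879 in the controls. These ratios use the FPKM left after multi-mapping reads were filtered, so they do not give the share of each copy. By this ratio, control replicate 1 had relatively more *gsp-4*. In that library *gsp-4* differed most from its cisplatin counterpart, by -1.01 on the log2 scale against -0.70 in the second pair.

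PP1 genes that act outside sperm were followed beside them. *gsp-1*, a broadly used PP1 catalytic subunit, had 173 and 146 FPKM with cisplatin, against 189 and 151 FPKM in controls, a log2 fold change of -0.09 (standard error 0.21). The ratio of *gsp-3* to *gsp-1* was 0.0822 and 0.173 with cisplatin, against 0.117 and 0.282 without. For *gsp-4* the ratio to *gsp-1* was 0.0795 and 0.157, against 0.149 and 0.248. In both ratios the groups overlapped. *szy-2*, which encodes an inhibitor-2 type regulator of PP1, had 177 and 133 FPKM with cisplatin, against 121 and 108 FPKM in controls. *sds-22*, a PP1 regulatory subunit, had 76.0 and 70.8 against 70.2 and 55.95 FPKM, and *lab-1*, which acts with PP1 on meiotic chromosomes, had 62.8 and 59.5 against 41.0 and 51.9 FPKM. Of these 4 genes 3 were higher and 1 was lower in both pairs, none passed, and their median log2 fold change was 0.31. *gsp-2*, the other PP1 catalytic gene outside sperm, was left out because an estimate had failed.

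Of the sperm chromatin genes, *smz-1* had 15.04 and 24.7 FPKM with cisplatin, against 25.9 and 43.6 FPKM in controls. The groups were separated narrowly, and the log2 fold change was -0.79 (standard error 0.38). For *smz-2* the values were 10.3 and 18.6 FPKM with cisplatin, against 16.3 and 29.5 FPKM in controls. Its groups overlapped, and its log2 fold change was -0.65 (standard error 0.45), with -1.06 to -0.23 when 1 library was left out. Within numbered pairs the cisplatin level was 0.580 and 0.566 times the control for *smz-1* and 0.632 and 0.630 times for *smz-2*. The ratio of *smz-1* to *smz-2* stayed between 1.33 and 1.59 in the 4 libraries.

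*htas-1* had 7.64 and 12.8 FPKM with cisplatin, against 9.03 and 29.02 FPKM in controls. Only control replicate 2 stood clearly above the other libraries, and the log2 fold change of -0.69 had the largest standard error of the members, 0.62. Without control replicate 2 the log2 fold change was 0.12. The gene next to it at 138 bases, *ins-7*, which encodes an insulin-like peptide, had 7.46 and 7.46 FPKM with cisplatin, against 6.17 and 23.02 FPKM in controls, so that it too was high in control replicate 2 alone. On the other side, 124 bases away, *ZK1251.3* had 1.19 and 1.34 against 1.26 and 3.72 FPKM, highest in the same library. Whether reads were shared across these short gaps was not tested.

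Another group of sperm chromatin genes, *spch-1*, *spch-2* and *spch-3*, encodes small basic proteins found in sperm nuclei. In all 3 both cisplatin values were below both control values. *spch-1* (C04G2.8) had 45.5 and 71.8 FPKM with cisplatin, against 100.9 and 101.6 FPKM in controls. *spch-2* (C10G11.9) had 19.0 and 30.2 against 41.4 and 48.9 FPKM. *spch-3* (T27A3.4) had 38.7 and 55.2 against 71.6 and 92.6 FPKM. The log2 fold changes of the 3 genes were between -0.90 and -0.81, with unadjusted p-values of at most 0.0232 and an adjusted p of 1.00 in limma.

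The *ssq* genes included the most abundant of the 9 transcripts. *ssq-4* had 52.8 and 80.2 FPKM with cisplatin, against 87.8 and 119.6 FPKM in controls, with no overlap and a log2 fold change of -0.65 (standard error 0.28). *ssq-2* had 32.8 and 53.7 FPKM with cisplatin, against 55.8 and 83.8 FPKM in controls, also with no overlap and a log2 fold change of -0.70 (standard error 0.32). In both genes cisplatin replicate 2 came close to control replicate 1. Summed over the 4 *ssq* genes, the FPKM was 149 and 237 with cisplatin, against 235 and 324 in controls. *ssq-1* had 41.7 and 69.8 FPKM with cisplatin, against 64.2 and 83.2 FPKM without, and its groups overlapped (log2 fold change -0.43, standard error 0.30). *ssq-3* had the smallest difference of the 9 genes, with 21.9 and 33.8 FPKM in cisplatin replicates 1 and 2, against 27.7 and 37.3 FPKM in the control replicates. It had a log2 fold change of -0.24 (standard error 0.32). Without cisplatin replicate 1 that of *ssq-3* was 0.07.

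Set against *ssq-3* within the same library, the other *ssq* genes had lower FPKM ratios with cisplatin. The ratio of *ssq-4* to *ssq-3* was 2.41 and 2.38 in the cisplatin libraries, against 3.17 and 3.20 in the controls. For *ssq-2* the ratio to *ssq-3* was 1.497 and 1.59, against 2.02 and 2.24, and for *ssq-1* it was 1.90 and 2.07, against 2.32 and 2.23. In each of these ratios both cisplatin values were below both control values, and so they were in the ratio of *ssq-4* to *ssq-1*, at 1.27 and 1.15 against 1.37 and 1.44. The ratio of *ssq-4* to *ssq-2* was 1.61 and 1.49 with cisplatin and 1.57 and 1.43 without, and here the groups overlapped. The ratios to *ssq-3* were singled out after their values were seen, they share their denominator, and their difference was not tested. The counting error (SD) of *ssq-3* itself was between 6.07% and 9.51% per library. Its estimated fragments per FPKM and kilobase of exon ranged from 4.27 to 7.16. In estimated fragments, *ssq-3* had 111 and 217 with cisplatin, against 235 and 271 in controls. *ssq-4* had 376 and 367, against 603 and 679. *ssq-2* had 264 and 367, against 400 and 603, and *ssq-1* had 225 and 317, against 321 and 366. The separation of the groups in the ratios to *ssq-3* was therefore seen in FPKM and did not hold in these estimates. For *ssq-1* it was reversed there, with both cisplatin ratios above both control ratios.

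**Figure D2:**
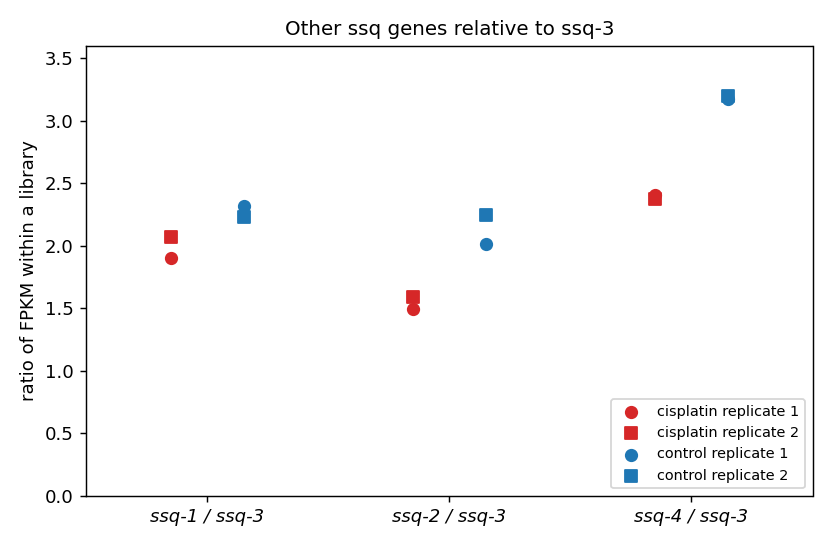
Ratio of the FPKM of *ssq-1*, *ssq-2* and *ssq-4* to that of *ssq-3* within each library, with cisplatin libraries in red to the left and control libraries in blue to the right; circles are replicate 1 and squares replicate 2. The ratio of *ssq-4* lies near 2.4 in both cisplatin libraries and near 3.2 in both controls.

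Beside *ssq-1* and *ssq-2* lie other sperm genes, and these had larger differences than their *ssq* neighbours. The nearest measured genes on either side of *ssq-3* and *ssq-4* are not in a sperm list. *ssq-2* is flanked by *ssp-9* and *ssp-11*, and *ssp-10* is the gene before *ssq-1*. The *ssp* genes encode short proteins with a major sperm protein domain. *ssp-9* had 69.2 and 94.8 FPKM with cisplatin, against 151 and 168 FPKM in controls. *ssp-10* had 52.9 and 62.2 against 118 and 117 FPKM, and *ssp-11* had 63.5 and 80.8 against 148 and 147 FPKM. Fold changes were -0.97, -1.03 and -1.04 on the log2 scale, and the groups did not overlap, while in limma none passed (adjusted p between 0.739 and 1.00). The difference between each *ssp* gene and its *ssq* neighbour was not tested.

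*ssq-2* and *ssq-4* are 18919 bases apart, and of the 3 measured genes between them only *ssp-11* exceeded 2.4 FPKM in any library. *smz-1* follows *spe-44*, the transcription factor gene of the sperm program, by 834 bases. *spe-44*, listed in the table as *gmeb-4*, had 12.03 and 11.4 FPKM with cisplatin, against 12.7 and 13.4 FPKM in controls, a log2 fold change of -0.15 (standard error 0.37). The 14 remaining neighbours of the members, none of them in a sperm list, had log2 fold changes from -0.69 to 0.58 with a median of -0.16, and none exceeded 28.6 FPKM. *T28H11.7*, a gene on the opposite strand that overlaps *ssq-4*, had 10.02 and 17.5 FPKM with cisplatin, against 7.57 and 25.9 FPKM in controls. The strand setting of the read assignment is not given in the sources used here, so reads from the overlap of *ssq-4* and *T28H11.7* cannot be assigned with certainty.

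The order of the levels was similar in all libraries. *ssq-4* was the highest of the 9 in each of the 4 libraries, *smz-2* ranked 8 and *htas-1* ranked 9 in all of them. *ssq-1* stood above *ssq-2* in 3 libraries and below it in control replicate 2. Between these ends *ssq-3*, *smz-1*, *gsp-3* and *gsp-4* exchanged places from library to library, with means over the libraries between 25.6 and 30.2 FPKM. In this order each stood above the next in 3 of the 4 libraries, and the differences between neighbours were not tested. Relative to the whole transcriptome the members are moderately to well expressed, with mean log2 levels above those of 53.7% to 89.3% of the genes tested.

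Replicates differed as well as groups. All 9 genes were higher in replicate 2 than in replicate 1, in the cisplatin group by 1.52 to 1.80 times and in the control group by 1.30 to 3.21 times. For 5 of them, cisplatin replicate 2 was above control replicate 1. The median difference between replicates was 0.70 with cisplatin and 0.58 without on the log2 scale, against 0.28 and 0.64 for all genes. Moulting genes, which mark larvae, were also higher in replicate 2. The 17 in the list summed to 266 and 805 FPKM with cisplatin, against 252 and 898 FPKM in controls, and none was at 0 in any library. The sum of 13 oocyte and eggshell genes (3 others had a failed estimate) was lower in replicate 2, with 4618 and 3559 against 4538 and 3017 FPKM, also with none at 0. Whether the replicates differed in stage, and what part this had in the levels of the sperm genes, was not tested. Within numbered pairs the members' log2 difference, cisplatin minus control, had a median of -0.64 between the libraries numbered 1 and -0.65 between those numbered 2. The difference was larger in the first pair for 5 genes, and larger in the second pair for *gsp-3*, *smz-1*, *smz-2* and *htas-1*. The largest gap between the pairs was that of *htas-1*, at -0.23 and -1.15.

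**Figure D3:**
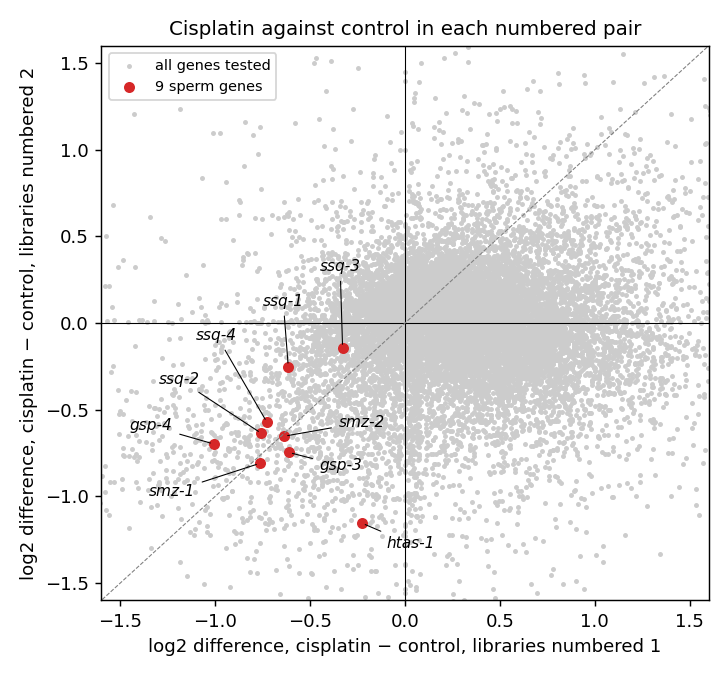
Log2 difference of FPKM + 0.5, cisplatin minus control, between the libraries numbered 1 (horizontal) and those numbered 2 (vertical), for all genes tested (grey) and the 9 sperm genes (red); the dashed line marks equal differences and 437 genes lie outside the axes. All 9 red points lie below 0 on both axes, from -1.01 to -0.23 on the horizontal and -1.15 to -0.14 on the vertical axis.

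Other genes of the sperm program were compared by list. All 30 genes of major sperm protein (MSP), the cytoskeletal protein that drives the crawling of nematode sperm, were lower in both pairs. The median of their log2 fold changes was -1.11. Their values summed to 2737 and 3177 FPKM with cisplatin, against 6855 and 5500 FPKM in controls. Unlike the 9 members, their sum was not higher in replicate 2 of the control group. Relative to the summed *msp* FPKM, the 9 genes amounted to 7.69% and 10.75% with cisplatin, against 4.92% and 9.20% in controls. This ratio was higher with cisplatin in both pairs, although the groups overlapped, and the difference was not tested. Reads mapping to several sites were filtered, and how much signal the *msp* genes lost is not known. Their separate values, their sum and this ratio are therefore uncertain. Of 25 other small sperm proteins (*msd*, *nspd* and *ssp* genes), 21 were lower and 2 higher in both pairs, with a median of -0.57. At its ends were *ssp-36*, with 1.76 and 2.86 against 4.75 and 6.11 FPKM, and *nspd-9*, with 12.03 and 16.2 against 5.88 and 18.1 FPKM. Of 31 *spe* and *fer* genes tested, which act in the formation and activation of sperm, 18 were lower and 2 higher, with a median of -0.37. No gene of these lists passed in limma over all genes. At an unadjusted p of at most 0.05, 28 *msp* genes, 4 of the small sperm protein genes and 0 of the *spe* and *fer* genes were lower.

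Regulators that set the sperm fate of germ cells had mixed values. *fog-1*, an RNA-binding regulator of that fate, had 13.07 and 11.6 FPKM with cisplatin, against 14.5 and 10.7 FPKM in controls. *fog-3*, which acts with it, had 0.436 and 3.94 against 1.74 and 6.99 FPKM. *elt-1*, a GATA factor gene, had 3.98 and 7.68 against 3.87 and 8.25 FPKM, and *cpb-1*, an RNA-binding protein needed for spermatogenesis, had 18.7 and 25.4 against 26.6 and 26.2 FPKM. Of 6 such genes, *spe-44* included, 3 were lower and 1 was higher in both pairs, none passed, and the median was -0.09. Outside the sperm program, the medians were 0.19 for the oocyte and eggshell genes and 0.13 for 15 germline genes of mitosis and meiosis, beside the 0.13 of all genes. The 6 yolk protein genes were all lower in both pairs, 5 of them with no overlap between the groups, and had a median of -0.33. Markers of the male soma and seminal fluid were low or unequal, with *swm-1*, a protease inhibitor that controls sperm activation, at 58.3 and 48.4 against 57.5 and 66.6 FPKM. *try-5*, a protease of seminal fluid, had 0.436 and 0.917 FPKM with cisplatin, and in the controls it is listed at 0 and had 1.02 FPKM.

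**Figure D4:**
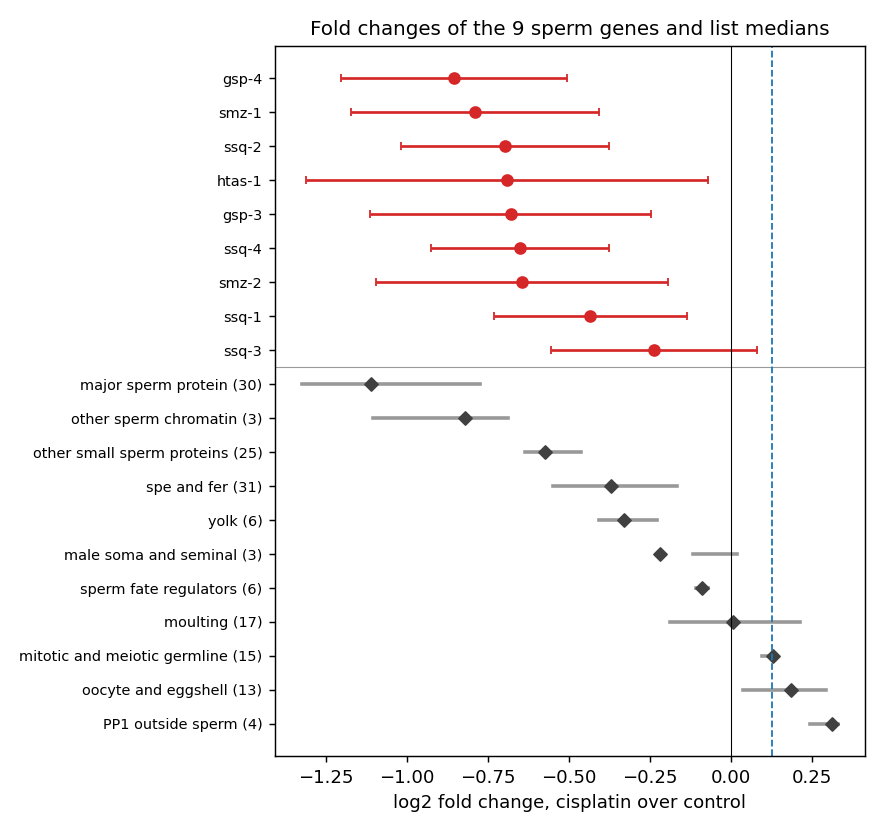
Log2 fold change, cisplatin over control, of each of the 9 sperm genes with limma's standard error (red), and below them the median of each gene list (black diamonds, number of genes tested in parentheses), with grey bars joining the medians within the 2 numbered pairs; the dashed blue line is the median of all genes, 0.13. The 9 genes lie from -0.85 to -0.24, between the major sperm protein median of -1.11 and that of all genes.

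**Figure D5:**
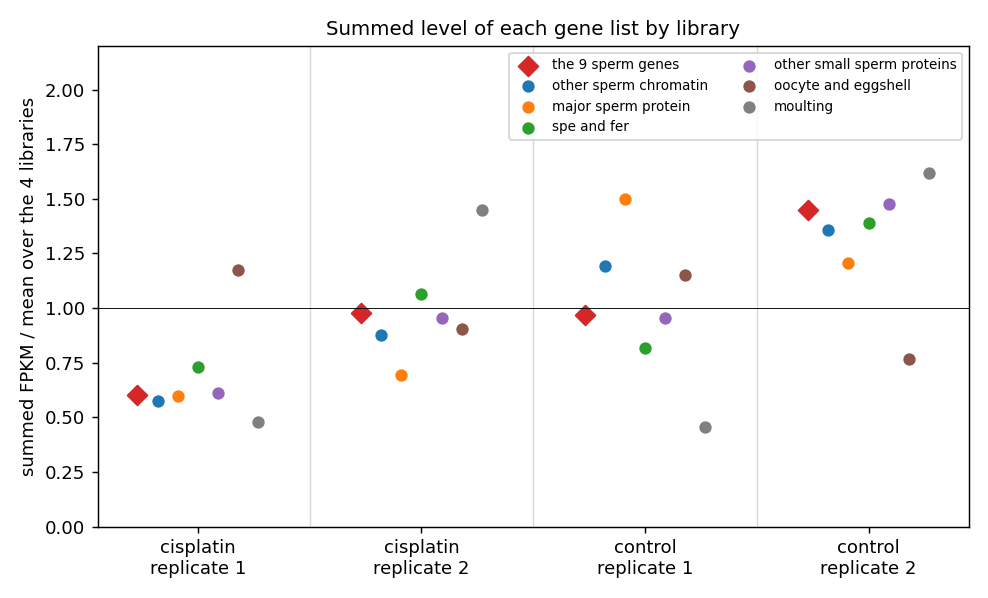
Summed FPKM of the 9 sperm genes (red diamonds) and of 6 gene lists in each library, divided by the mean of that list over the 4 libraries. The 9 genes stand at 0.603 and 0.979 in the cisplatin libraries and at 0.966 and 1.45 in the controls, close to the other small sperm proteins, while moulting genes are high and oocyte genes low in replicate 2 of both groups.

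The profile of the members over the 4 libraries was compared with that of the 7758 other genes whose mean reached 10 FPKM, by the Euclidean distance of log2 values centred on each gene. The nearest was *msd-1* (F44D12.3), a gene of the major sperm protein domain family, with 49.2 and 77.2 FPKM with cisplatin, against 77.1 and 120.2 FPKM in controls, at a distance of 0.0682. *F21H7.5*, *C34D4.3*, *F32H2.7* and *ttbk-8.2* (C39H7.1) followed, at distances of 0.096, 0.106, 0.119 and 0.145. *F21H7.5* had 12.6 and 22.4 against 19.9 and 35.1 FPKM, and *C34D4.3* had 18.2 and 33.04 against 28.9 and 49.7 FPKM. Among the members themselves, *ssq-2* was nearest to their mean profile, at 0.111, and *htas-1* farthest, at 0.656. With 4 libraries such distances are a description.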

How the data were processed

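The authors aligned paired-end reads with TopHat to WBcel235, removed multi-mapping reads and estimated expression with Cufflinks and Cuffdiff through SeqSolve (versions not given in the sources used here). The deposited table gives FPKM per library with confidence bounds and an estimate status, and each column was matched to a sample by name (unmarked columns are the controls). Fold changes, p-values and condition means deposited by the authors were not used. Depth per gene was estimated from the bounds, read as 1.96 Poisson SD.

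Genes whose mean reached 0.5 FPKM, without those with failed estimates (88), were kept (15065). They were compared as log2(FPKM + 0.5) with limma 3.58.1 (R 4.3.3), with intensity trend and Benjamini-Hochberg adjustment (threshold 0.05). The procedure was also run on simulated data in which both groups shared the replicate difference, and its outcome is not used here as support. With 2 libraries per group an exact permutation test cannot reach p = 0.05 (smallest 0.33), so none was made. Fold changes on this scale understate those of low genes.

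Named were all members, genes at the ends of lists, neighbours, and the 5 nearest profiles; single genes of short lists and other neighbours were added after their values were seen. Members and lists were chosen with earlier results of these data known. Alternatives were pseudocounts 0.1 and 1, other filters, scalings, no trend, a replicate block and leaving out libraries. RefSeq named 15193 of the 15408 genes, and Ensembl release 115 (WBcel235) placed the members. The dose is that of the treatment field; the treatment protocol, the same for every sample, says 0 µg/ml.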

Additional observations from a re-analysis of the deposited data

How the results depend on the processing

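Under the 13 alternatives, 2 of 117 fold changes of single members changed direction. The other filters, no trend, the replicate block and failed estimates kept at 0 leave a member's log2 fold change as it was. In those fits its direction was fixed in advance, so the count does not measure stability. Leaving out 1 library turned *ssq-3* and *htas-1*, whose log2 fold changes then ranged from -0.54 to 0.0696 (without cisplatin replicate 1) and from -1.51 to 0.12 (without control replicate 2). The median of the members ranged from -1.05 to -0.25 in those fits, and relative to all genes from -1.05 to -0.61; in every alternative all 9 lay below the median of all genes. Scaling libraries to a common median put the all-gene median at -0.06 and quantile normalization at 0.01, against 0.13 as deposited. Members with a lower value and an unadjusted p up to 0.05 numbered 2 with the common median, 4 with quantile normalization and 0 with a mean of at least 5 FPKM, without the intensity trend or with failed estimates kept at 0. Genes lower at that p numbered 169 and 276 with these scalings. With a pseudocount of 1, 1 gene was higher at an adjusted p under 0.05.

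With the replicate number as a block, 4 members (*gsp-4*, *smz-1*, *ssq-2*, *ssq-4*) were lower at an adjusted p under 0.05 and 8 at the unadjusted p. Over all genes 231 were higher and 138 lower at the adjusted p, and 1043 and 441 at the unadjusted p. The study speaks of independent replicates and of separate experiments, but not of which control library belongs to which cisplatin library, so the pairing by number is not stated. Deviations of the libraries numbered 1 from their group means correlated across genes (r = 0.594), and genes are not independent replicates.

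When a library is dropped, the one remaining in its group is assumed to vary like the other group. Members lower at the unadjusted p then ranged from 0 to 4, genes higher and lower at the adjusted p from 0 to 18 and 0 to 7, and those at the unadjusted p from 112 to 750 and 52 to 110. Estimated depth was lowest for *htas-1*, with 21 to 61 fragments per library.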
